A study of Homo sapiens with 8 samples.

Results

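Chromatin accessibility was examined at 36 focal adhesion and actin-linker genes, out of 20110 protein-coding genes of the hg19 (GRCh37) annotation. The genes were chosen for what their proteins do at the junction between integrins and actin, and none was chosen from a measured value. Earlier results of these data were known when the choice was made. For each gene, the peaks of every library that overlapped the gene body or the 10 kb on either side of it were taken. Peaks that overlapped between at least 2 libraries were merged into 1 site, which gave 331 sites in the 36 windows out of 75501 sites in all. ATAC-seq, in which a transposase inserts sequencing adapters into open chromatin, had been carried out on LX-2, an immortalised human line of hepatic stellate origin that was wild type in every group. The cells lay on a soft (about 2 kPa) or a stiff (about 40 kPa) fibronectin-coated polyacrylamide hydrogel for 2 days (D2) or 4 days (D4). Each of the 4 groups of gel and day had 2 replicate libraries, and the labels do not say whether these came from separate cultures, so that the p-values measure only the spread between these libraries. A single cell line stands in here for stellate cells of the liver, and no library of cells on another surface was analysed.

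Focal adhesions are the protein assemblies through which a cell holds on to the matrix beneath it. The tails of integrins are bound by talin and kindlin, vinculin and the complex of ILK, PINCH and parvin tie them to actin, and kinases with their scaffold proteins pass the signal on. Zyxin and the Ena/VASP proteins build actin at the adhesion, whereas alpha-actinin, filamin and proteins with LIM or PDZ domains bundle the filaments or sit along them. In stellate cells that turn into myofibroblasts these adhesions grow larger and stress fibres form.

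The lists held between 29789 peaks in D2 soft replicate 1 and 72840 peaks in D4 stiff replicate 2, and the median number of fragments over a summit was 10 in the former and between 13 and 22 in the other 7 libraries. D2 soft replicate 1 therefore stands apart, and the results that move most with it are given with and without it. Of 10 markers of stellate or mesenchymal cells, COL1A1, PDGFRB, ACTA2, VIM, TIMP1 and LHX2 had a promoter peak in all 8 libraries, COL1A2 in 7, HAND2 in 6, LRAT in 1 and DES in 0. Of the markers of other cell types, the hepatocyte genes ALB, APOA1 and HNF4A, the leukocyte gene PTPRC and the cholangiocyte gene KRT19 had a promoter peak in 0 libraries, TTR in 2, CDH5 in 4, EPCAM in 6 and CD68 in 8. A promoter peak shows open chromatin and not transcription.

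The windows of the 36 genes held many accessible sites. The median gene had 5.125 peaks per library against 2 over all genes, and per 100 kb of window the median was 6.87 peaks against 3.41. A promoter peak, defined as a peak within 1 kb of any annotated transcription start of the gene, was found in all 8 libraries for 26 of the 36 genes (72.2%), in some libraries for the other 10 and in none for 0 genes, whereas 47.6% of all genes had such a peak in all 8. The number of annotated starts, which ranged from 3 for FLNC to 55 for PTK2, sets how much sequence counts as a promoter. With the most upstream start alone, 11 of the 36 genes had a promoter peak in every library and 11 had it in none, while 39.8% of all genes had it in every library, so that the share of the 36 genes was then below and not above that of all genes.

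Of the 331 sites, 183 (55.3%) lay in introns, 89 (26.9%) at promoters of the 36 genes, 34 (10.3%) in the flanks, 16 (4.83%) at promoters of other genes and 9 in exons. A peak was present in all 8 libraries at 115 sites (34.7%), compared with 32.1% of all sites. More stiff than soft libraries had a peak at 155 sites (46.8%) and more soft than stiff libraries at 21 (6.34%). Over all sites these shares were 47.5% and 6.98%, so that the 331 sites were close to the background.

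Values in single libraries are given below as pairs of replicates 1 and 2, first for D2 (soft, then stiff) and then for D4 (soft, then stiff). The strength of a peak is given as its rank percentile by p-value within its own list, where 0% is the strongest peak and 100% the weakest, because p-values of different lists cannot be compared directly.

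Genome sequence is shown at 6 of the sites that are named below in the comparisons of stiff with soft. Each window of 100 bases lies around the summit of the best-ranked peak of the site and is printed from the plus strand of hg19. Capitals mark matches on either strand to the AP-1 motif (TGACTCA or its complement TGAGTCA), the TEAD motif (GGAATG or CATTCC) or the GC box (GGGCGG or CCGCCC), and a window without capitals held none of these letters. The windows are chr10:75757720-75757819 at a VCL promoter, chr17:37036311-37036410 in a LASP1 intron, chr2:109269080-109269179 in a LIMS1 intron, chr14:100498026-100498125 in an EVL intron, chr15:63101449-63101548 in a TLN2 intron and chr16:75267929-75268028 in a BCAR1 intron.
VCL: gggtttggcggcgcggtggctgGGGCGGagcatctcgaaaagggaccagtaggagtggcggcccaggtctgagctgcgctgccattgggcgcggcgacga
LASP1: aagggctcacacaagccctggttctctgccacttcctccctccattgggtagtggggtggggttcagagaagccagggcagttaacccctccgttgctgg
LIMS1: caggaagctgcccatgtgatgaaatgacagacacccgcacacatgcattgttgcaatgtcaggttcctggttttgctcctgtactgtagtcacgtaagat
EVL: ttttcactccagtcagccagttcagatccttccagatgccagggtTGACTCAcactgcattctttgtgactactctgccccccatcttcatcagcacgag
TLN2: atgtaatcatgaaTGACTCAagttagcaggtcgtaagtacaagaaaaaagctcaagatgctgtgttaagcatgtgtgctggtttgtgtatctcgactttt
BCAR1: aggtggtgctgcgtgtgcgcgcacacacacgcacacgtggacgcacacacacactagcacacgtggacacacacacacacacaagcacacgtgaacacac
The AP-1 letters stood in the windows of TLN2 and EVL and the GC box in that of VCL, while the BCAR1 window was mostly a repeat of CA. The other sites among the 10 largest stiff minus soft differences are not shown. Of these, the windows of PALLD, LPP and NEDD9 held none of these letters. Those of ACTN1 and TNS1 held the GC box, and that of TNS1 also the TEAD motif.

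The same letters were counted in the windows of all sites. The AP-1 motif was present at 47 of the 331 sites, in 21 of the genes, which is 14.2% against 20.2% of all sites. For the TEAD motif the share was 12.7% against 11%, for the GC box 11.5% against 10.1%, and for the CArG box, which is bound by serum response factor, 1.21% (4 sites in 3 genes) against 0.526%. The promoter sites of the 36 genes held the GC box at 29.2% and AP-1 at 8.99%, with a median GC content of 64%. In the intronic sites the order was turned, with AP-1 at 16.9%, TEAD at 15.3% and the GC box at 3.83%, at a median GC content of 46%. The shares describe letters and not binding.

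All 6 integrin-actin linkers had a promoter peak in every library. VCL, which encodes vinculin, had the best promoter rank of them, with a median percentile of 4.59%, and its best promoter peak stood at 58.1% and 9.44%, 2.96% and 4.91%, 4.28% and 6.96%, and 1.75% and 2.42%. The peak was among the strongest 10% of the list in every library but D2 soft replicate 1. TNS1, a tensin that binds integrin tails and actin, had the lowest-ranked promoter of the linkers, with a median of 24.7% and a range from 11% to 54.4%. TLN2, the longer of the talin genes, had the most peaks (11 and 25, 26 and 26, 24 and 22, and 23 and 26), and TLN1 the fewest, with 3 to 5.

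All 5 genes of the ILK-PINCH-parvin complex also had a promoter peak in every library. LIMS1, which encodes PINCH1, had promoter percentiles of 21.3% and 8.24%, 6.26% and 3.46%, 8.47% and 2.46%, and 1.43% and 6.91%, and it had the most peaks of the complex, 8 to 13 per library. Its paralogue LIMS2 had weak promoter peaks, with a median of 60.5% and a range from 25.6% to 83.8%. PARVB, a parvin, had the fewest peaks, 1 to 4.

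Among the 9 kinases and scaffold proteins, 6 had a promoter peak in every library. The exceptions were SRC, the Src tyrosine kinase, without it in D2 soft replicate 1 and D4 soft replicate 2, BCAR1, the scaffold p130Cas, without it in D2 soft replicate 1 and D4 soft replicate 1, and GIT1, a scaffold for regulators of Arf and Rac, without it in D2 soft replicate 1. BCAR1 had the weakest promoter of the group: where present, its peak ranked between 58.0% and 99.9%, with a median of 92.7%. NEDD9, the Cas-family relative of BCAR1, had the strongest, with percentiles of 20.3% and 5.58%, 4.01% and 2.72%, 15% and 2.78%, and 3.02% and 3.37%. NEDD9 also had the most peaks of the group (median 11.5) and TGFB1I1, which encodes the LIM protein Hic-5, the fewest (median 2.5).

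Of the 6 genes of the zyxin and Ena/VASP group, ENAH and EVL, both Ena/VASP proteins that promote the growth of actin filaments, had no promoter peak in D2 soft replicate 1 and had it in the other 7 libraries. ENAH had 0 peaks of any kind in that library and 2 to 4 in the others, which left it out of the rank tests. TES, a LIM protein that binds zyxin and Mena, had the best promoter rank of the group (median 16.6%) and EVL the worst (median 67.7%). LPP, a zyxin relative with a gene of 737 kb, held 13 and 28, 33 and 33, 33 and 31, and 32 and 38 peaks, the most of all 36 genes.

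Only 1 of the 4 actin crosslinkers, ACTN1, had a promoter peak in every library. FLNA, FLNC and ACTN4 had none in D2 soft replicate 1 and had it in the other 7, with medians between 54.8% and 76.2%, which are weak peaks. ACTN1, an alpha-actinin that bundles stress fibres, had a promoter median of 6.67%, and ACTN4, its paralogue, had the weakest promoter of the group at 76.2% and the most peaks, with a median of 10.

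Of the 6 LIM, PDZ and stress fibre proteins, PALLD, which encodes palladin, had no promoter peak in D2 soft replicate 1 and CSRP1, a LIM protein of the cysteine-rich family, none in D4 soft replicate 1. FHL2, a LIM protein found at adhesions and in the nucleus, had the best promoter (median 5.86%, range 2.23% to 13.9%), and PALLD the worst (median 62.6%). PALLD had the most peaks of the group, with 5 in D2 soft replicate 1 and 14 to 23 in the others, whereas PDLIM7, the PDZ and LIM protein Enigma, had a median of 3.

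**Figure D1:**
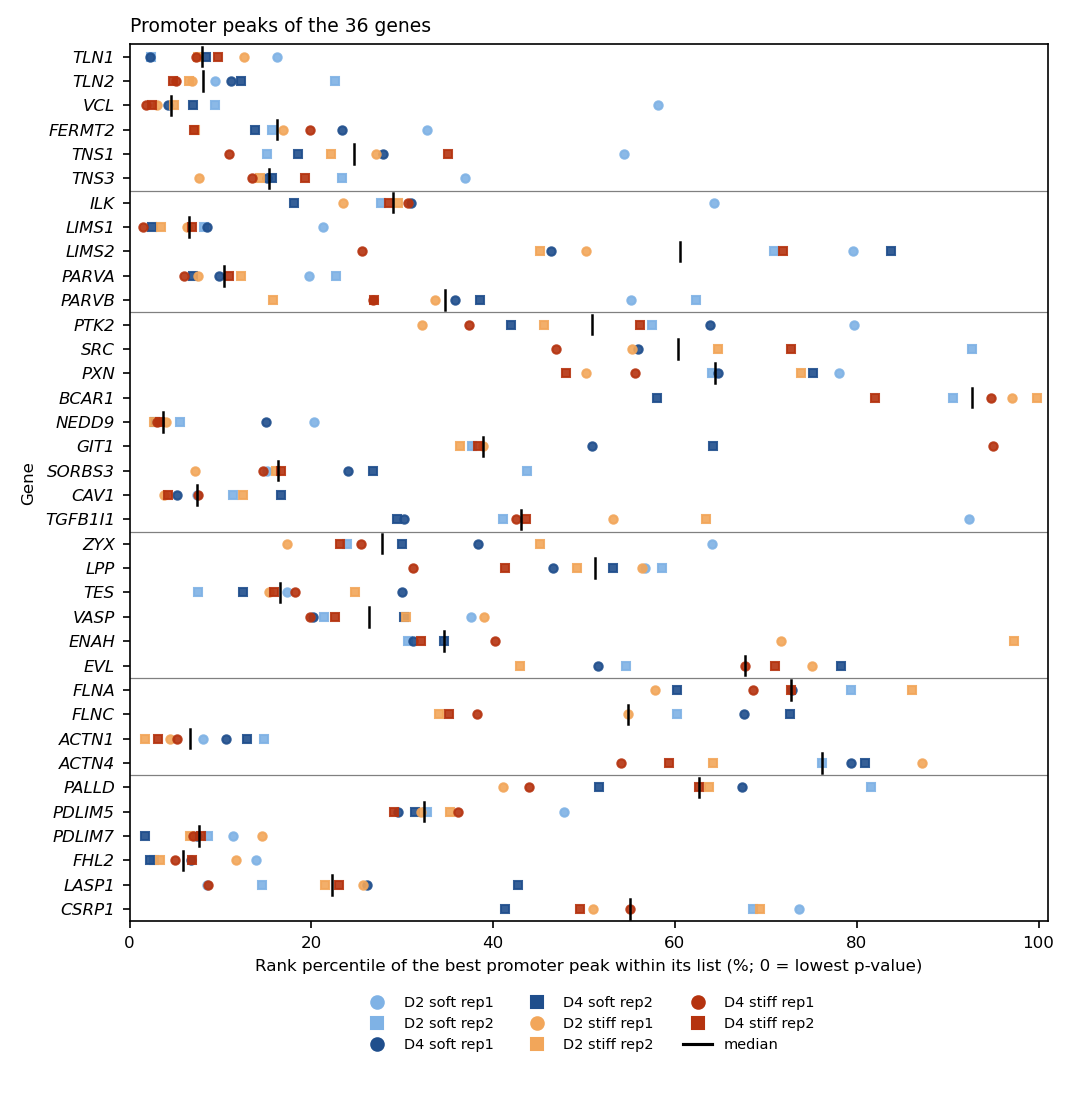
Rank percentile (x axis, %, 0 is the strongest peak of a list) of the best promoter peak of each of the 36 genes (y axis, in role groups separated by lines), with a point for each library that had one and a bar at the median. NEDD9, VCL and FHL2 lie near 0 with medians of 3.69%, 4.59% and 5.86%, BCAR1 lies near 100 with a median of 92.7%, and the point of D2 soft replicate 1 is often the rightmost.

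The strongest sites of the group were mostly intronic. The best-ranked was in an intron of ACTN1 (chr14:69417373-69418690), with percentiles of 4.60% and 0.225%, 0.229% and 0.932%, 0.889% and 0.431%, and 0.344% and 0.345%. Between 33 and 146 fragments lay over its summit and its fold enrichment over the local background was 9.14 to 15.3. All libraries thus had it in the strongest 5% of the list. Intronic sites of BCAR1 (chr16:75278700-75280140, median 0.761%), LASP1 (chr17:37056821-37057696, 0.852%), TNS1 (chr2:218798838-218799800, 0.883%) and FHL2 (chr2:106020090-106021102, 1.55%) followed. BCAR1 thus combined one of the strongest intronic sites with the weakest promoter. Not every gene with a weak promoter did so, since the best peak in the SRC window had a median of 48.0%. Over the 36 genes, the median of the best rank in the window was 9.98%, against 21.1% over all genes with a peak. The windows of the 36 genes were longer, with a median of 91.1 kb against 47.2 kb over all genes. A longer window offers more peaks to choose from, and the part of this in the ranks was not tested.

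The comparison of stiff with soft asks whether the stiffness of the gel goes along with more or stronger accessible sites at these genes. In all, the 36 windows held 141 and 264 peaks, 277 and 295, 274 and 252, and 293 and 306. Every stiff library had more than every soft library, and the stiff lists were also longer, apart from D2 stiff replicate 1, which was shorter than D4 soft replicate 1. Per 1000 peaks of the list, the numbers were 4.73 and 4.74, 4.67 and 4.63, 4.33 and 4.47, and 4.45 and 4.20. On this scale the stiff libraries had 4.49 ± 0.215 and the soft libraries 4.57 ± 0.201 (SD, n = 4), a difference of -0.0795 that was smaller than either SD.

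**Figure D2:**
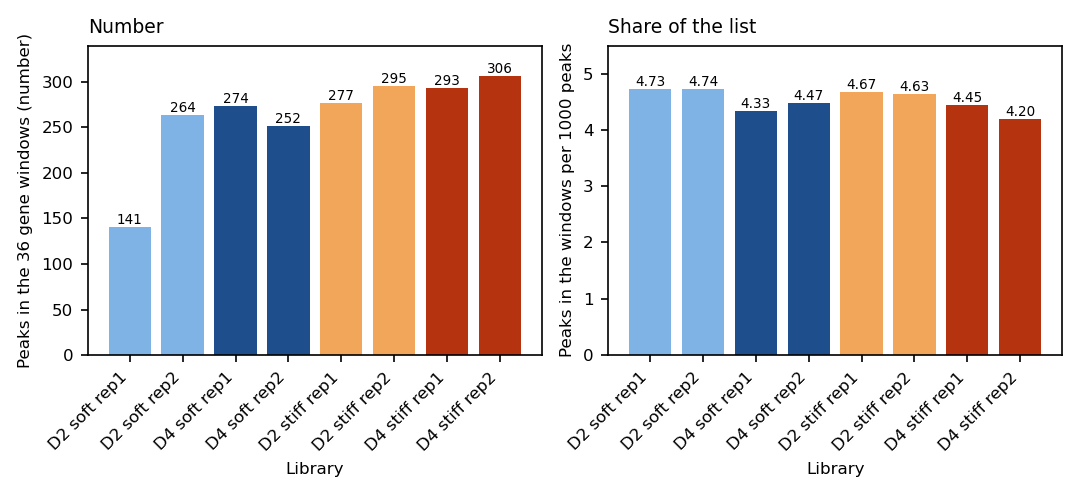
Number of peaks in the 36 windows (left, y axis) and the same per 1000 peaks of the list (right, y axis) in each library (x axis, coloured by group). The numbers run from 141 to 306 and are higher in each stiff than in each soft library, whereas per 1000 peaks they lie between 4.20 and 4.74 and the stiff and soft bars overlap.

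Promoter presence differed in 1 direction. All 12 absences of a promoter peak were in soft libraries, 9 of them in D2 soft replicate 1, and 0 were in stiff libraries. Thus 10 genes (SRC, BCAR1, GIT1, ENAH, EVL, FLNA, FLNC, ACTN4, PALLD and CSRP1) had a promoter peak in every stiff and not in every soft library, and 0 had the opposite. Over all genes with a promoter peak, 20.2% had the first pattern and 0.454% the opposite. Without D2 soft replicate 1, 33 of the 36 genes had a promoter peak in all 7 libraries and 3 genes (SRC, BCAR1 and CSRP1) had it in every stiff and not every soft library, beside 4.87% of all genes. With every list cut to the 29789 strongest peaks, the length of the shortest, 1 gene had the first pattern (PARVB) and 1 the opposite (TGFB1I1). Over all genes with a promoter peak, 9.58% then had the first pattern and 5.64% the opposite. With 1 gene each way, the 36 genes cannot show whether they differ from that lean.

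In 3 genes each stiff library had more peaks than any soft library, where 2.55% of all genes with a peak did so. FHL2 had 2 and 6, 8 and 8, 7 and 5, and 8 and 8 peaks. LIMS2 had 3 and 4, 5 and 5, 3 and 4, and 6 and 6, and NEDD9 had 7 and 11, 12 and 13, 11 and 11, and 12 and 15. The gap between the lowest stiff and the highest soft library was a single peak in each gene. Since the 3 genes were picked for this order, an exact permutation test (two-sided) gives p = 0.0286 for each by construction and adds nothing to it. That is the smallest p that 4 against 4 libraries allow, and it would not pass a correction over all genes. The opposite order, more peaks in every soft library, was seen in 0 of the 36 genes and 0% of all genes. With lists of equal length the numbers were 2 to 4 for FHL2, 2 or 3 for LIMS2 and 7 to 9 for NEDD9, and 0 of the 3 genes kept the order. Over all genes, 64 then had more peaks in every stiff library and 41 in every soft library.

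Some of the sites behind these numbers are given here, most of them in the weaker part of their lists. The median over the 331 sites was 57.2%. At LIMS2, a promoter site at chr2:128404292-128405133 was present in all 4 stiff libraries and in D2 soft replicate 2, with percentiles between 68.8% and 86.8%, and a flanking site upstream of the gene was seen in both D4 stiff libraries at 95.5% and 100%. At FHL2, the site at chr2:105993225-105993677 was present in all 4 stiff libraries and in D4 soft replicate 1, between 47.5% and 76.5%. At NEDD9, an exonic site at chr6:11200607-11201236 had a peak in all 4 stiff libraries and in D4 soft replicate 1, between 61.0% and 91.6%. The strong sites of the 3 genes were present in every library, as the intronic FHL2 site at 0.409% to 2.88% was.

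**Figure D3:**
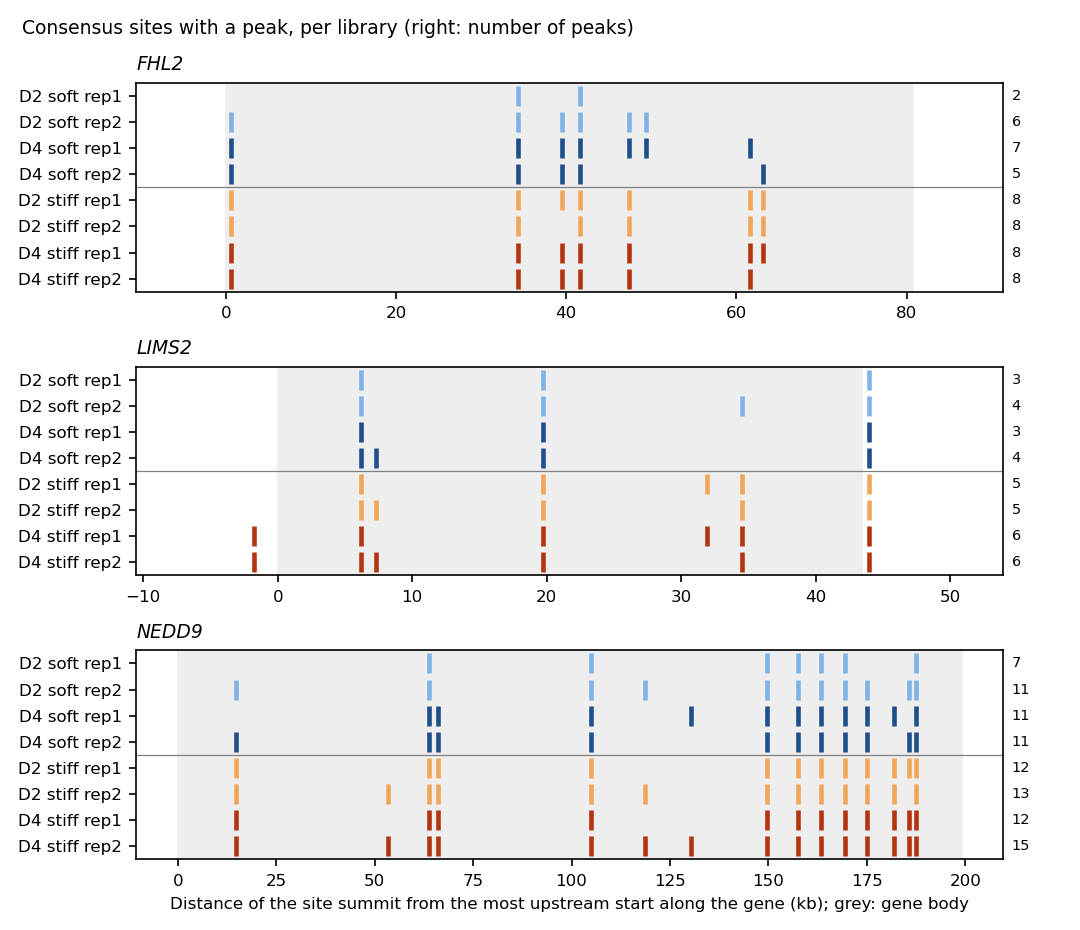
Sites with a peak in each library (rows, soft above the line and stiff below it) along FHL2, LIMS2 and NEDD9, by the distance of the site summit from the most upstream start (x axis, kb, grey for the gene body), with the number of peaks at the right. Stiff rows hold 8, 5 or 6, and 12 to 15 peaks and soft rows 2 to 7, 3 or 4, and 7 to 11, and a site can hold more than 1 peak, so that there can be fewer marks than peaks.

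**Figure D4:**
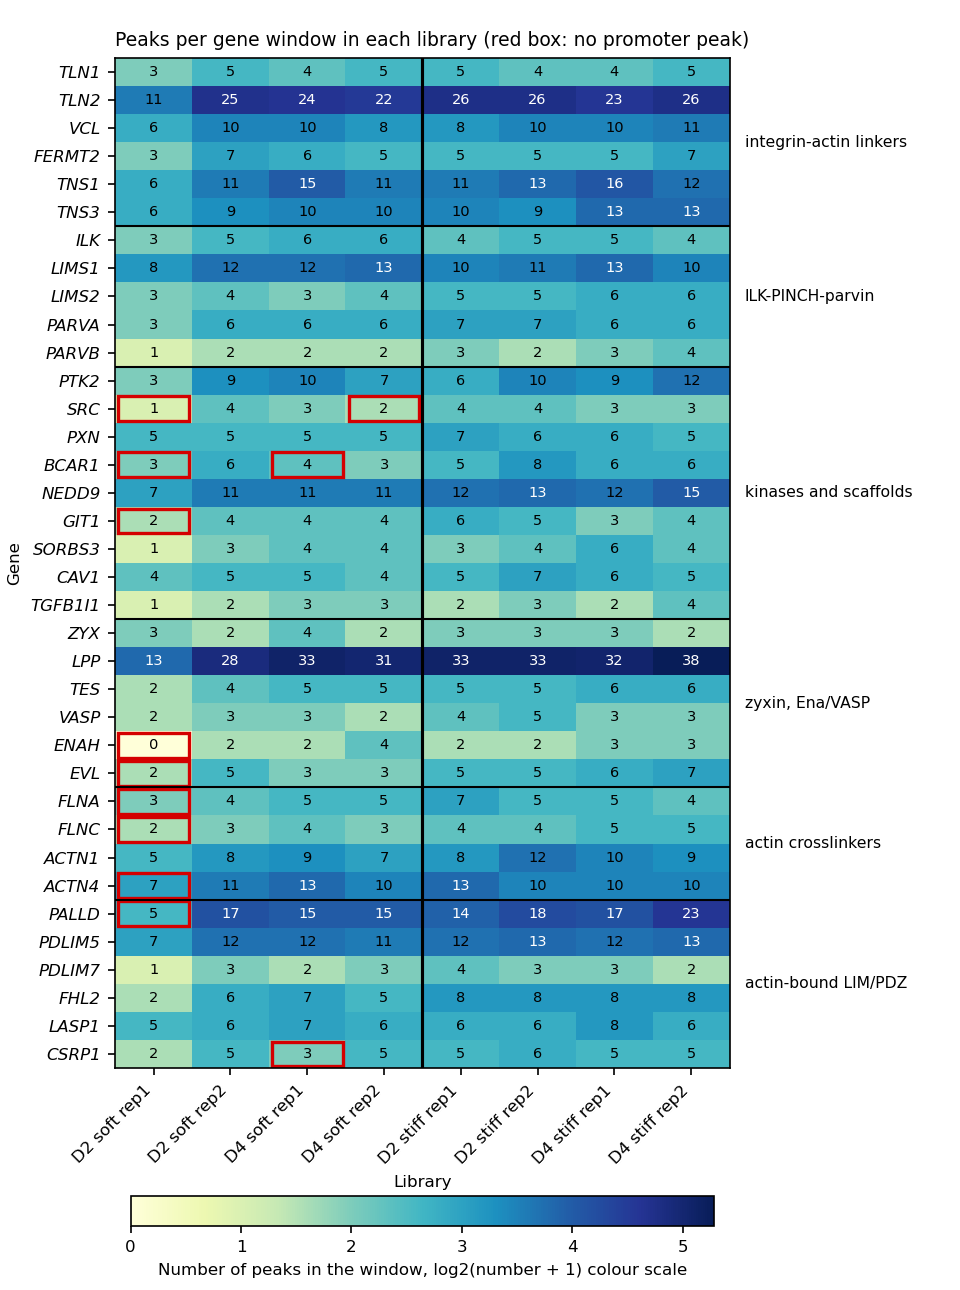
Number of peaks in the window of each of the 36 genes (rows) in each library (columns), with a red box where no promoter peak was found. The 12 boxes are all in soft libraries, 9 of them in D2 soft replicate 1, and LPP has the most peaks with 13 to 38.

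Sites found in every stiff and no soft library were 2 of the 331 (0.85% of all sites had this pattern). The BCAR1 intronic site (chr16:75267868-75268514), the CA-rich sequence shown above, stood at 94.4% and 93.8% in D2 stiff and 90.9% and 83.1% in D4 stiff, with 7, 9, 14 and 10 fragments over the summit. The TLN2 intronic site (chr15:63101087-63101673), whose window holds the AP-1 letters, stood at 54.5% and 59.3% in D2 stiff and 64.1% and 71.8% in D4 stiff, with 10, 13, 13 and 11 fragments. With lists of equal length the count was 0, and 1 site, at LIMS1, was in every soft and no stiff library. Over all sites these counts were 107 and 64. With 1 soft library left out, the count of sites in every stiff and no soft library was up to 8 (8 without D2 soft replicate 2 or D4 soft replicate 1, 5 without D4 soft replicate 2). Over all sites it rose likewise, from 642 to 1253, 1530 and 1071 without these 3 libraries in turn. Both peaks were in the weaker part of their lists and at low pileup, so that an absence in a soft library means under the threshold at that depth. In the lists as deposited, 0 of the 331 sites were in every soft and no stiff library, a pattern that 0.0172% of all sites had.

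Within a day, 21 sites in 14 genes (6.34%) were in both D2 stiff and neither D2 soft library, beside 7.45% of all sites, and 0 were in both D2 soft libraries alone (0.391% of all sites). The best-ranked of the 21 was an intronic VCL site (chr10:75837454-75838238), absent from both D2 soft libraries, at 21.3% and 22.5% in D2 stiff, and in all D4 libraries between 8.41% and 27.4%. On D4, 19 sites in 12 genes (5.74%) were in both stiff and neither soft library, beside 6.72% of all sites, with 3 of them at EVL. An intronic PTK2 site was the best-ranked of these and was also present in D2 soft replicate 2. In the opposite direction there were 3 sites (0.906%, beside 1.31% of all sites), at a FLNA promoter, a LIMS1 intron and a LPP exon. The FLNA site (chrX:153601719-153602029) was in both D2 stiff libraries as well, at 73.9% and 86.1%, and in both D4 soft libraries at 72.9% and 60.3%. Only the BCAR1 and TLN2 sites named above had the stiff pattern on both days. Lists of equal length left 174 sites in the gene windows. The counts were then 4 (stiff) and 6 (soft) on D2 and 4 and 4 on D4. Over all sites the stiff counts stayed higher, with 1555 against 1243 on D2 and 1149 against 1078 on D4. Counts as small as those in the gene windows cannot show whether these genes differ from that lean.

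Rank strength was tested with limma on the normal score of each rank, fitted over 24246 sites and 13777 genes with a peak in every library, where a positive difference is a stronger rank on the stiff gel. Of the 115 sites tested in the 36 windows, 0 passed an adjusted p of 0.05, against 0.00825% of all sites, and the lowest adjusted p was 0.471. Without adjustment, 4 sites were under 0.05 with a stronger and 4 with a weaker rank on stiff, beside 3.84% and 4.04% of all sites. For the best peak of each gene, 0 of 35 genes passed (0% of all genes), with a lowest adjusted p of 0.474. A p that misses the threshold does not show that stiff and soft were alike at these sites.

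The largest difference of a site was at the VCL promoter (chr10:75757290-75758187), whose summit lies 103 bp from a start and 2818 bp downstream of the most upstream one. It stood at 84.1% and 9.44%, 2.96% and 4.91%, 4.28% and 6.96%, and 1.75% and 2.42%, with 11 and 50, 50 and 60, 62 and 49, and 113 and 92 fragments over the summit. Within each day both stiff libraries ranked the site above both soft libraries, across the days D2 stiff replicate 2 came after D4 soft replicate 1, and D2 soft replicate 1 was far from all others. The difference was 1.03 ± 0.37 scores (SE, limma, adjusted p = 0.502). It was 0.44 without D2 soft replicate 1 and 1.57 without D2 soft replicate 2, and in the latter fit it passed, with an adjusted p of 0.0247 from limma.

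At 5 of the other 9 sites with the largest differences, those of EVL, ACTN1, LASP1, PALLD and one of NEDD9, the percentiles of the stiff and soft libraries did not overlap. The sites were picked by their stiff minus soft difference, which favours such a gap. The share of all sites with a gap in percentile was not counted. The EVL intronic site (chr14:100496904-100498662) stood at 17% and 22.8%, 25.1% and 28.5%, 12.8% and 18.3%, and 33.9% and 29.4%, a difference of -0.77 ± 0.28 (adjusted p = 0.507, limma). It ranked lower in each stiff library, and its summit lies 60289 bp into the gene.

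The other 4 sites had a better percentile within the whole list in each stiff library. The limma differences rest on ranks taken only among the sites present in all libraries. In those ranks the ACTN1 and NEDD9 sites kept this order, while the LASP1 and PALLD sites did not. The ACTN1 promoter site (chr14:69445909-69446599), 30 bp from the most upstream start, stood at 13.9% and 14.8%, 4.48% and 1.75%, 10.6% and 12.9%, and 5.24% and 3.14%, a difference of 0.67 ± 0.28 (adjusted p = 0.570, limma). A NEDD9 intronic site (chr6:11212648-11213385) stood at 62.9% and 30.9%, 19.8% and 10.2%, 27.7% and 47.3%, and 15.4% and 20.0%, a difference of 0.75 ± 0.29 (adjusted p = 0.523, limma). The LASP1 intronic site (chr17:37035921-37036886) stood at 21.2% and 12.1%, 2.39% and 4.71%, 21.6% and 5.16%, and 2.49% and 2.49%, a difference of 0.80 ± 0.30 (adjusted p = 0.514, limma). At LASP1 the gap was narrow, since D4 soft replicate 2 came directly after D2 stiff replicate 2, whereas the other soft libraries were well behind. The PALLD intronic site (chr4:169539812-169540671) stood at 62.0% and 97.9%, 36.1% and 48.5%, 87.9% and 56.2%, and 46.6% and 55.8%, a difference of 0.87 ± 0.44 (adjusted p = 0.658, limma). Its peaks were weak, with 5 to 22 fragments over the summit, and the gap between the gels was again narrow. The PALLD difference was 1.57 without D2 soft replicate 1, 0.22 without D2 soft replicate 2 and 0.50 without D4 soft replicate 1, and that of LASP1 was 0.51 without D4 soft replicate 1. None of these 4 differences passed the test.

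At the remaining 4 sites of the 10 the percentiles of the stiff and soft libraries overlapped, as they did at VCL. The LIMS1 intronic site (chr2:109268808-109269472), 119002 bp into the gene, stood at 16.8% and 9.66%, 33.0% and 14.9%, 9.25% and 8.81%, and 22.4% and 19.4%, a difference of -0.82 ± 0.28 (adjusted p = 0.471, limma), and its groups overlapped only through D2 stiff replicate 2 and D2 soft replicate 1. The others were intronic sites of LPP (chr3:187990215-187991094, -0.85 ± 0.31), NEDD9 (chr6:11219009-11219880, -0.72 ± 0.34) and TNS1 (chr2:218714736-218715614, -0.61 ± 0.33), with adjusted p between 0.507 and 0.675 from limma. Without D2 soft replicate 1 the NEDD9 and TNS1 differences were -0.43 and -0.32, without D2 stiff replicate 2 that of NEDD9 was -0.46, and without D2 stiff replicate 1 that of TNS1 was -0.34. The same gene could hold sites of either sign, as NEDD9 did. When ranks were taken only among the 24246 sites present in all libraries, every stiff library ranked 3 of the 115 sites above every soft library (ACTN1, NEDD9 and a PARVB promoter site, 2.61%, beside 1.96% of all sites), and every soft library ranked 2 above every stiff library (EVL and LIMS1, 1.74%, beside 2.17%).

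**Figure D5:**
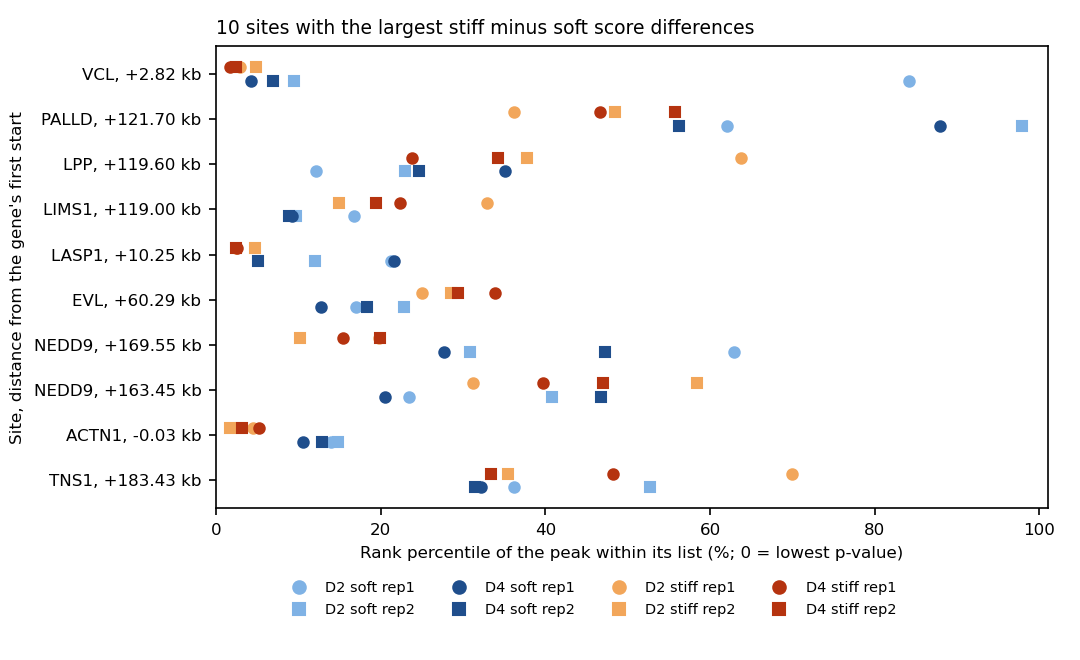
Rank percentile (x axis, %, 0 is the strongest peak of a list) of the 10 sites with the largest stiff minus soft differences in score (y axis, named by gene and distance in kb from the most upstream start), with stiff libraries in the upper and soft libraries in the lower row of each site. At VCL D2 soft replicate 1 stands alone at 84.1%, and the stiff and soft points are apart at ACTN1 (1.75% to 5.24% against 10.6% to 14.8%) and EVL (25.1% to 33.9% against 12.8% to 22.8%).

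At the level of whole genes, 3 of the 35 tested had an unadjusted p under 0.05 between stiff and soft. The best peak of VCL ranked higher on stiff by 0.73 ± 0.28 scores (adjusted p = 0.638, limma), and 3.77% of all genes were under 0.05 in this direction. For EVL the difference was -0.86 ± 0.27 (adjusted p = 0.474, limma) and for TES -0.58 ± 0.26 (adjusted p = 0.692, limma), beside 3.27% of all genes in that direction. Without D2 soft replicate 1 the VCL difference was 0.48 and that of EVL -0.59, and by fold enrichment that of VCL was 0.39. The best EVL peak was the intronic site with the AP-1 letters shown above. In all, 21 of 35 genes had a difference above 0, with a median of 0.09 scores against -0.01 over all genes. The difference between the days in the effect of stiffness did not pass for any of the genes or sites (lowest adjusted p 0.724 and 0.785 from limma, with 0 genes and 9 sites under 0.05 before adjustment).

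The comparison of D4 with D2 asks what changed with time on the gel. Per 1000 peaks of the list, the 36 windows held 4.69 ± 0.05 peaks on D2 and 4.36 ± 0.124 on D4 (SD, n = 4), and each D4 library was below each D2 library. The difference of -0.331 was larger than the spread within a day, but with lists of equal length it was 0.109, of the opposite sign. In 0 of the 36 genes did the peak numbers of all D4 libraries exceed those of all D2 libraries (0.977% of all genes) and in 0 was it the opposite (0% of all genes). Likewise 0 sites were in every D4 and no D2 library (0.437% of all sites) and 0 in every D2 and no D4 library (0.00927%).

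No rank differed between the days under the test. Of 115 sites, 0 passed (0% of all sites, lowest adjusted p 0.864, limma), with 2 higher and 3 lower on D4 at an unadjusted p under 0.05, beside 2.64% and 3.13% of all sites. Of 35 genes, 0 passed (0% of all genes) and 0 were under 0.05 before adjustment, beside 2.48% and 2.76% of all genes. An intronic NEDD9 site (chr6:11194693-11195578) ranked higher in every D4 than in every D2 library among the sites present in all libraries, with percentiles of 69.5% and 59.2%, 54.1% and 43.4%, 27.0% and 43.5%, and 30.8% and 12.1%, and a difference of 0.71 ± 0.30 (adjusted p = 0.864, limma). In the whole lists D2 stiff replicate 2 and D4 soft replicate 2 were nearly level at this site. A PTK2 site 2805 bp upstream of the gene had the opposite order, with -0.46 ± 0.28 (adjusted p = 0.894, limma). Each pattern was thus seen at 1 of 115 sites (0.87%), beside 1.52% of all sites in either direction. The largest difference, 0.84 ± 0.37, was at the VCL promoter site, and it was 0.26 without D2 soft replicate 1 and 1.38 without D2 soft replicate 2. An intronic PTK2 site followed with -0.73 ± 0.35 (adjusted p = 0.864, limma), and it lay between -0.43 and -1.01 with 1 library left out, the smallest without D2 stiff replicate 1. A second NEDD9 intronic site (chr6:11318592-11319459, -0.65 ± 0.30, and -0.40 without D2 soft replicate 1) and a LPP exonic site (chr3:188598960-188600287, -0.63 ± 0.28) completed the 5 largest.

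A list of 44 further focal adhesion genes, among them the integrins, kindlin and tensin relatives and myosin chains, was set beside the 36. A promoter peak was present in all 8 libraries for 28 of the 44 (63.6%), in some for 14 and in none for 2, TNS4 and PARVG, which encode a tensin and a parvin. The 44 had 4.94 peaks per 100 kb of window, between the 6.87 of the 36 genes and the 3.41 of all genes, and their median best rank was 7%. No gene of this list (0 of 44) had peak numbers that did not overlap between stiff and soft or between the days. In the limma fit 0 of 42 passed in either comparison. CRKL, an adaptor that binds p130Cas, had an unadjusted p under 0.05 for stiffness, with 1.26 ± 0.43 scores (adjusted p = 0.569). For the days PAK1, a kinase downstream of Rac, SYNPO2, an actin-bundling protein, and MYL9, a myosin light chain, had unadjusted p under 0.05, with 0.78, 0.63 and -0.62 scores.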

How the data were processed

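ATAC-seq peak lists of 8 LX-2 libraries were analysed, 2 for each gel and day, grouped by the sample labels. The authors trimmed reads with Trim Galore, mapped them to hg19 with Bowtie2 (2.4.1) and ran MACS2 library by library, without pooling. Bedtools 2.24.0 and Picard are also named in the submitters' processing notes. In the deposited lists, fold enrichment is the ratio of the summit pileup to the local background, and the deposited −log10 p and −log10 q refer to the same background, with a highest q of 0.0498. The score the authors deposited is derived from q and was not used. The study's q threshold in MACS2 was 0.05, while its other options and the handling of Tn5 offsets are not given in the sources used here. Since no reads or counts were used, no count model was run.

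Genes and starts came from GENCODE 44 on GRCh37, and 26 symbols shared by several genes were left out. Ranks by p-value within each list were turned into normal scores and fitted with limma 3.58.1 (R 4.3.3) over all genes or sites with a peak in every library, with group means and Benjamini-Hochberg adjustment. Summit pileups were recovered from the fold enrichment and p-value. Python 3.11.15, scipy 1.17.1 and pysam 0.24.0 were used, and the fit was tested on simulated data.

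The genes and lists were chosen with earlier results of these data known. The text names genes without a promoter peak in every library, genes or sites that separate the groups, the extremes of each role group, and the 10 sites with the largest stiffness and 5 with the largest day differences. Alternatives were lists of equal length, a q of 0.01, summit overlap, no flanks, other promoter rules, ranks by fold enrichment, sites in at least 6 libraries, a replicate block and each library left out.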

Additional observations from a re-analysis of the deposited data

Results flagged for a closer look

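Within groups of 4 libraries, 10 of 75 gap tests (Dixon, 95% level) marked a library far from the others. The usual rate of about 1 in 20 cannot be set beside this count. Most items were picked by their differences in these data, and each library was in a gel group and a day group. D2 soft replicate 1 was marked among the soft libraries for the number of peaks in the 36 windows (141), for the NEDD9 peak number (7), for the VCL promoter site (84.1%, also among the D2 libraries) and for the LIMS1 intronic site at chr2:109268808-109269472 (16.8%). That library had the shortest list and the lowest summit pileup, and the part of these in the values was not tested.

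At the LASP1 intronic site (chr17:37035921-37036886), D2 stiff replicate 2 was marked among the stiff libraries (4.71%) and D4 soft replicate 1 among the D4 libraries (21.6%). At the TNS1 intronic site (chr2:218714736-218715614), D4 stiff replicate 1 was marked among the D4 libraries (48.2%). At the LPP exonic site (chr3:188598960-188600287), D2 stiff replicate 1 was marked among the stiff libraries (68.8%) and D2 soft replicate 2 among the soft libraries (40.6%).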

How the results depend on the processing

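The limma counts of the 36 genes stayed at 0 under every list setting tried. With lists of equal length, 0 genes had more peaks in every stiff library, 1 in every soft (LIMS1) and 1 in every D4 library (NEDD9), sites in every stiff and no soft library were 0, the opposite 1 and D4 alone 1, sites of 1 gel within a day were 4 (D2 stiff), 6 (D2 soft) and 4 (D4 stiff), the D4 minus D2 difference per 1000 peaks was 0.109, 1 gene had a promoter peak in every stiff and not every soft library, and 0 sites were ordered by day in either direction. Over all genes with these lists, 64 had more peaks in every stiff, 41 in every soft and 31 in every D4 library. Over all sites, 107 were in every stiff and no soft library, 64 the opposite and 49 in D4 alone. Within a day, 1555, 1243 and 1149 of all sites were in D2 stiff, D2 soft and D4 stiff alone. The promoter pattern was seen in 9.58% of all genes with a promoter peak. With the most upstream start alone, 11 genes had a promoter peak in every library. Without flanks, 0 sites ranked better in every D2 library (1.52% of all sites). By fold enrichment 2 did so (1.74%, beside 1.98% of all sites) and 5 in every soft library (4.35%, beside 2.12%). The rank-order counts, the promoter peaks in every stiff and not every soft library, the sites of 1 gel within a day and the list settings for promoter presence were chosen after seeing the data.

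Leaving out each library gave 0 to 1 sites with a stiffness call (1, at VCL, without D2 soft replicate 2, when 81 genes and 103 sites of all passed), 3 to 5 genes with more peaks in every stiff library (5 without D2 soft replicate 2 or D4 soft replicate 1), 0 to 1 in every D4 and 0 to 1 in every D2 library, 2 to 8 sites in every stiff and no soft library (8 without D2 soft replicate 2 or D4 soft replicate 1, 5 without D4 soft replicate 2), 0 to 3 for D4 (3 without D4 soft replicate 1) and 0 to 1 for D2. More peaks in every stiff library were seen in 465 of all genes with every library kept. The count was 860 without D2 soft replicate 2 and 1133 without D4 soft replicate 1. Sites of 1 gel within a day ranged from 21 to 110 (D2 stiff, 110 without D2 soft replicate 2), 0 to 14 (D2 soft, 14 without D2 soft replicate 1), 18 to 45 (D4 stiff, 45 without D4 soft replicate 1) and 3 to 9 (D4 soft, 9 without D4 soft replicate 1), with 1 library then standing for its group. Over all sites these counts rose too without the same libraries: from 5627 to 21913, 295 to 3537, 5077 to 11329 and 990 to 1462. Promoters in every library were 26 to 33 and those in every stiff and not every soft library 3 to 10 (33 and 3 without D2 soft replicate 1). Sites ordered by rank were 3 to 10 (stiff), 2 to 8 (soft), 1 to 5 (D4) and 1 to 6 (D2), the highest without D2 soft replicate 1 and, for D2, also without D4 stiff replicate 1. Per 1000 peaks the stiff minus soft difference was -0.158 to 0.0162, so that its sign changed, and that of the days -0.368 to -0.278.

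With the replicate number as a block, 0 genes and 0 sites passed for stiffness or day. For the rank scores of the named sites, 217 alternatives kept direction and side of the threshold, and the VCL promoter site passed at 1.57 without D2 soft replicate 2. The numbers do not pair the libraries: deviations of same-numbered libraries correlated between -0.0287 and 0.127, and the peak names in the lists carry other replicate numbers than the labels in 3 of the 4 groups. Depth limits all absences, since a peak under the q threshold in a shallow library cannot be told apart from closed chromatin.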
